A study of Danio rerio with 20 samples.

Results

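The genes described here are those of the mitochondrial respiratory chain, the mitochondrial ribosome and the import of proteins into mitochondria, in whole brains of male zebrafish on the AB background. They were chosen by symbol, as the genes of 1 deposited comparison whose names begin with the family names of the respiratory complexes (nduf, sdh, uqcr, cyc1, cox, atp5), of the mitochondrial ribosome (mrpl, mrps), of the translocases (timm, tomm) or of smaller mitochondrial families (coq, chchd, tfam, polrmt, opa1, mfn, micos), or with mt- for genes of the mitochondrial DNA. Of the 2885 genes listed, 26 have such a symbol. The comparison sets WT brains at over 30 months against WT brains at 2 months, the ages in the labels, and the paper describes these groups as age ranges that start there. The deposited comparison names its old group by a single age within that range, and its match to the label of over 30 months was inferred. The labels hold 3 libraries of WT at over 30 months and 2 of WT at 2 months, all of poly(A) RNA, from WT fish that the paper describes as siblings of its tert-/- fish. The series description gives 3 animals for each group and a fit of the WT samples alone, so that the young group may hold 1 fish more than the libraries labelled here. Which libraries entered the comparison is not named. Each group is whole brain, with all its cell types mixed. The other ages of WT and the tert-/- fish were not analysed here.

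Only genes whose adjusted p fell below 0.05 in the Wald test of the authors' DESeq2 fit are in the table, so that every listed gene is a called gene by construction. The table holds no value per library, so the spread between fish enters only through the standard error (SE) of each log2 fold change, and a reported SE is that of the authors' fit. A positive log2 fold change means more RNA in old than in young brains, and the mean normalized count is the average over the libraries of the fit. As the fit is described as one of the WT samples, it may also hold the WT libraries at 9 and 22 months. Mean counts and SEs may then draw on those ages too. In whole brains, fewer cells of a type and less RNA per cell cannot be told apart.

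Complexes I to IV of the inner mitochondrial membrane pass electrons from NADH and succinate to oxygen and, except for complex II, pump protons, and ATP synthase uses the proton gradient to make ATP. Coenzyme Q and cytochrome c carry electrons between them. Most subunits are encoded in the nucleus, made in the cytosol and brought in by the TOM and TIM translocases, while a small set is encoded by mitochondrial DNA, transcribed with the help of Tfam and translated by the ribosomes of the mitochondrion. Neurons depend on this system for the ion pumping that follows firing.

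Of the 26 listed genes, 21 were higher and 5 lower in old than in young WT brains. The adjusted p values imply that 13.9% of 21135 tested genes were called in either direction, with 6.53% listed as higher and 7.12% as lower. The median log2 fold change of the 26 genes was 0.34, against -0.25 over all 2885 listed genes, and 80.8% of the 26 were higher, against 47.8% of all listed genes. The reference table of gene names holds 262 genes with the same symbol families. Of these, 9.92% were listed, against 9.51% of all its 29201 genes, so the share listed was near that of all annotated genes. Split by direction, 8.02% of the 262 were listed as higher and 1.91% as lower, against 4.49% and 5.02% of all annotated genes. The annotated genes outnumber the 21135 tested, and how many of the 262 were tested is not known. The annotated shares lie below those of tested genes, of which 13.9% were called and 6.53% listed as higher. Neither share is thus a matched background for the 262. The other 236 genes of these families were not called, not tested, or are among 47 called genes that the adjusted p values imply and the table does not hold. The table does not tell these cases apart. All listed genes lie on chromosomes 1 to 25, and for the 13 genes encoded by mitochondrial DNA, which are among the 236, the table does not show whether they were tested. No test of the group as a whole was made.

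**Figure D1:**
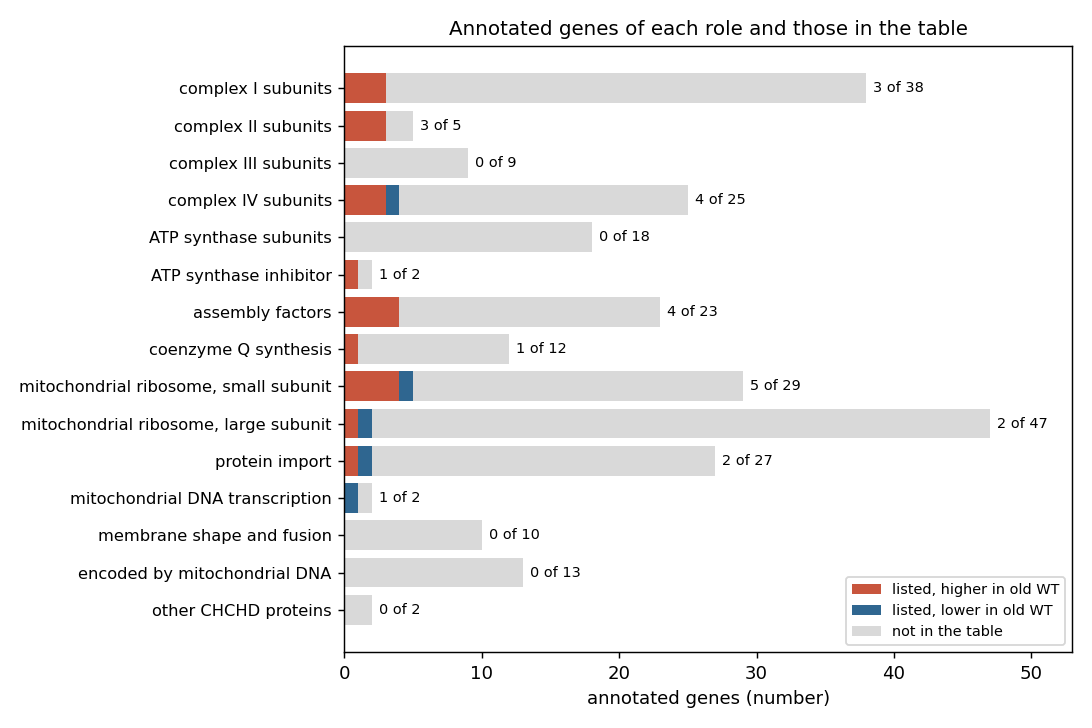
Number of annotated genes (x axis) in each role (rows), divided into genes listed as higher in old WT, listed as lower in old WT and not in the table. Complex II has 3 of 5 genes listed, and complex III and the subunits of ATP synthase have none of 9 and none of 18.

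Of the nuclear subunits of the respiratory complexes, 10 of 95 annotated genes were listed, 9 higher and 1 lower. That is 10.5%, near the 9.51% of all annotated genes, which include untested ones. Complex II, succinate dehydrogenase, which feeds electrons from the citric acid cycle into the chain, had 3 of its 5 annotated genes listed, all higher. sdhda, a membrane anchor subunit (ENSDARG00000055712, GRCz11 chromosome 5, 30081241 to 30088077), was 1.70-fold higher (log2 fold change 0.77, SE 0.18, authors' DESeq2 Wald test, adjusted p = 0.000119), with a mean normalized count of 271. The change of the other anchor subunit, sdhc, was smaller, at 0.32 (SE 0.13). The iron-sulfur subunit sdhb, which had the highest mean normalized count of the 26 genes (1881), was 1.18-fold higher (log2 fold change 0.24, SE 0.08, authors' DESeq2 Wald test, adjusted p = 0.0242). The gene of the catalytic flavoprotein, sdha, and the other sdhd copy are not in the table.

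Complex I, the NADH dehydrogenase, had 3 of 38 annotated subunit genes listed (7.89%, against 9.51% of all annotated genes). All 3 were higher, with close estimates. ndufs7, a core subunit that holds the last iron-sulfur cluster before ubiquinone, had a log2 fold change of 0.32 (SE 0.13, authors' DESeq2 Wald test, adjusted p = 0.0348) at a mean normalized count of 1087. The accessory subunits ndufa1 and ndufb3, both of the membrane arm, were at 0.30 (SE 0.08) and 0.29 (SE 0.08). These are changes of 1.25, 1.23 and 1.22 times. No subunit of complex III, of 9 annotated, and none of ATP synthase, of 18 annotated, is in the table.

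**Figure D2:**
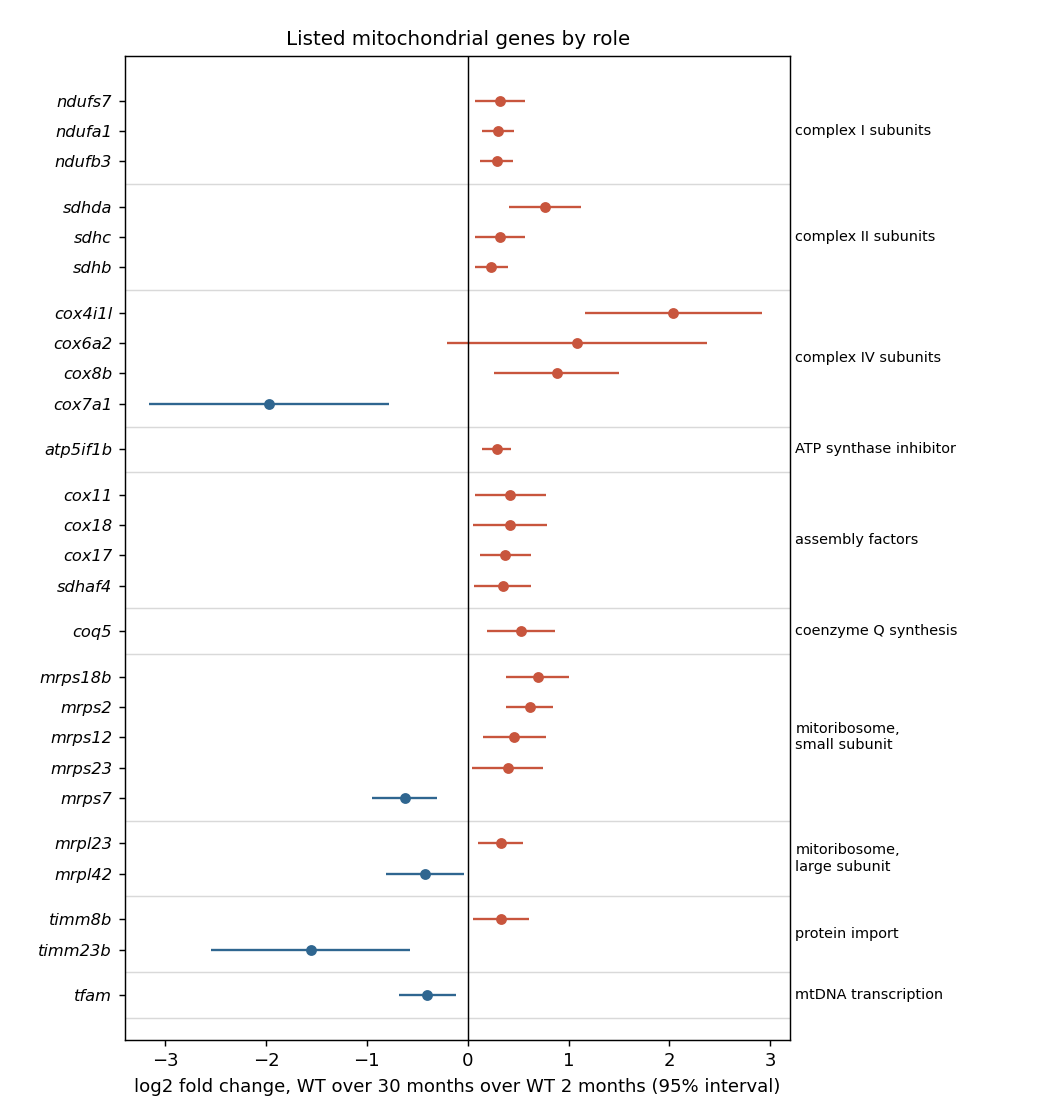
Log2 fold change of WT over 30 months over WT 2 months (x axis) of the 26 listed genes, by role, with 95% normal intervals from the authors' standard errors. Genes higher in old WT are to the right of 0 and genes lower in old WT to the left, the widest changes are those of cox4i1l at 2.04 and cox7a1 at -1.97, and the interval of cox6a2 includes 0.

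Complex IV, cytochrome c oxidase, had the widest changes, and they went both ways. cox4i1l, named after the gene of subunit IV (ENSDARG00000012388, GRCz11 chromosome 24, 28231602 to 28245872), was 4.11-fold higher (log2 fold change 2.04, SE 0.45, authors' DESeq2 Wald test, adjusted p = 2.07e-05), with a mean normalized count of 58.8. cox8b and cox6a2, whose mammalian counterparts are isoforms of heart and skeletal muscle, were at 0.88 (SE 0.32) and 1.08 (SE 0.66). The 95% interval of cox6a2, centred on a shrunken estimate, runs from -0.21 to 2.37 and includes 0 although the Wald test passed, and the reference table names this gene COX6A1. cox7a1, the counterpart of another such muscle isoform (ENSDARG00000069464, GRCz11 chromosome 15, 20403084 to 20405796), was 3.92-fold lower (log2 fold change -1.97, SE 0.61, authors' DESeq2 Wald test, adjusted p = 0.00151). The 3 genes whose deposited symbols are those of muscle isoforms thus did not share a direction. Mean normalized counts were 1088 for cox8b, 21.4 for cox6a2 and 20.5 for cox7a1. Of 12 markers of skeletal muscle, 2 were listed, both lower, with mean normalized counts of 18.2 and 22.2. pvalb1 was at -0.21 (SE 0.44, authors' DESeq2 Wald test, adjusted p = 0.0189). pvalb2 was at -0.14 (SE 0.32, authors' DESeq2 Wald test, adjusted p = 0.00589). Both intervals, centred on shrunken estimates, include 0 although the Wald test passed. The part of muscle tissue in the values of the 3 genes was not tested. Of the 25 annotated subunit genes of complex IV, 21 are not in the table, among them COX4I1, cox8a and both copies of COX7A2. Whether near-identical copies share reads was not tested.

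Assembly factors, which build the complexes and are not part of them, had 4 of 23 annotated genes listed, all higher. That is 17.4%, against 9.51% of all annotated genes. Of these, 3 serve complex IV. cox17 is a copper chaperone of the intermembrane space, at a log2 fold change of 0.37 (SE 0.13). cox11 passes copper to the catalytic core and was at 0.42 (SE 0.18, authors' DESeq2 Wald test, adjusted p = 0.0333). cox18 inserts a core subunit into the membrane and was level with cox11, at 0.42 (SE 0.19). The remaining factor, sdhaf4, binds the flavoprotein of complex II before assembly and was at 0.35 (SE 0.14). Changes of the assembly factors thus lay between 1.27 and 1.34 times. The ndufaf genes, named as assembly factors of complex I, are not in the table, while acad9, a complex I assembly factor under another symbol, was lower at -0.64 (SE 0.19).

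atp5if1b, which encodes an inhibitor that stops ATP synthase from running backwards, was the member outside the complexes with the highest mean normalized count, 1352. It spans 24613255 to 24614724 on GRCz11 chromosome 17 and was 1.22-fold higher (log2 fold change 0.29, SE 0.07, authors' DESeq2 Wald test, adjusted p = 0.000710). coq5, a methyltransferase of coenzyme Q synthesis, was 1.44-fold higher (log2 fold change 0.53, SE 0.17, authors' DESeq2 Wald test, adjusted p = 0.00532), and is the single listed gene of 12 annotated for that pathway.

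The mitochondrial ribosome had 7 of 76 annotated genes listed, 5 higher and 2 lower. That is 9.21%, near the 9.51% of all annotated genes. Of the 7, 5 are among the 29 genes assigned by symbol to the small subunit, which reads the messenger. Whether the subunits differ in the share listed was not tested. mrps2 (ENSDARG00000103198, GRCz11 chromosome 21, 7121942 to 7128064) had the smallest p of the 26 genes and was 1.53-fold higher (log2 fold change 0.61, SE 0.12, authors' DESeq2 Wald test, adjusted p = 3.43e-06). mrps18b (ENSDARG00000007065, GRCz11 chromosome 19, 30423117 to 30428901) was 1.62-fold higher (log2 fold change 0.69, SE 0.16, authors' DESeq2 Wald test, adjusted p = 8.66e-05). mrps12, the counterpart of a bacterial protein of the decoding centre, was at 0.46 (SE 0.16), and mrps23 at 0.40 (SE 0.18).

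mrps7, of the same small subunit, went the other way. It spans 11072958 to 11075476 on GRCz11 chromosome 3 and was 1.54-fold lower (log2 fold change -0.62, SE 0.16, authors' DESeq2 Wald test, adjusted p = 0.000542), with a mean normalized count of 180. The large subunit, which forms the peptide bonds, had 2 of the 47 genes assigned to it by symbol listed, in opposite directions. mrpl23, the counterpart of a bacterial protein at the exit of the peptide tunnel, was at 0.33 (SE 0.11), and mrpl42 at -0.42 (SE 0.20, authors' DESeq2 Wald test, adjusted p = 0.0469), with a mean normalized count of 92.3. The listed subunits of this particle were thus called in both directions.

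Protein import had 2 of 27 annotated genes listed (7.41%, against 9.51% of all annotated genes), again in opposite directions. timm8b, a small chaperone that escorts membrane proteins across the intermembrane space, was 1.26-fold higher (log2 fold change 0.33, SE 0.14). timm23b, a copy of the gene of the channel through which proteins with a presequence pass the inner membrane (GRCz11 chromosome 13, 3880882 to 3926179), was 2.94-fold lower (log2 fold change -1.56, SE 0.50, authors' DESeq2 Wald test, adjusted p = 0.00225), with a mean normalized count of 36.2. Its span overlaps that of ncoa4 over 10920 base pairs, and ncoa4, a receptor in the turnover of ferritin that was looked up for its position, was higher at 0.50 (SE 0.09) with a mean normalized count of 1116. Libraries were directional, but whether counting used the strand is not given in the sources used here, so reads of the pair may not be separable. timm23a and the receptors and pore of the TOM complex are not in the table.

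tfam, which packages mitochondrial DNA and starts its transcription, was lower in old brains. It spans 7254112 to 7263958 on GRCz11 chromosome 12 and had a log2 fold change of -0.40, a change of 1.32 times (SE 0.14, authors' DESeq2 Wald test, adjusted p = 0.0153), at a mean normalized count of 249. polrmt, the RNA polymerase that works with it, is not in the table. tfb2m, another partner of tfam, is counted with the translation list below and was higher at 0.35 (SE 0.11). The 10 annotated genes of membrane shape and fusion, such as opa1 and the mitofusins, are not in the table either.

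Most of the 26 genes changed little. The log2 fold change lay within 0.5 of 0 in 16 of them (61.5%), against 35.3% of all listed genes, and 14 of these 16 were higher, against 41.9% of the other listed genes with changes of that size. It was 1 or more in size in 4, cox4i1l, cox6a2, cox7a1 and timm23b, which are also the 4 whose counts averaged under 60, and 2 of these were higher and 2 lower. Neither the cut at 60 nor the one at 500 used below was set beforehand. cox4i1l, at a mean normalized count of 58.8, lies just under the cut at 60. A gene entered the table only with an absolute Wald statistic of at least 2.70, and of the 778 other listed genes whose counts averaged under 60, 76.5% changed by 1 or more and 24 by less than 0.5. The 7 genes averaging 500 or more normalized counts were all higher, with a median log2 fold change of 0.30, whereas 44.5% of the 809 other listed genes at that level were higher. The median mean normalized count was 231.5, against 188 for all listed genes.

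**Figure D3:**
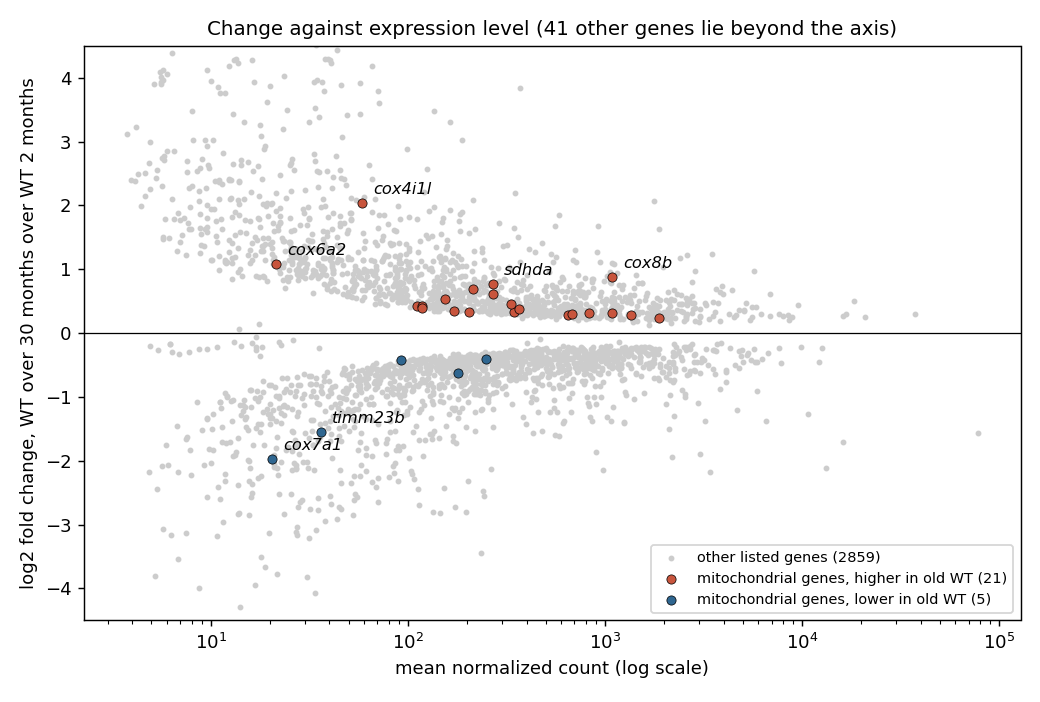
Log2 fold change of WT over 30 months over WT 2 months (y axis) against the mean normalized count on a log scale (x axis) of all listed genes, in grey, with the 21 mitochondrial genes that were higher and the 5 that were lower in colour. The labelled genes changed by 0.75 or more, and 41 other genes lie beyond the axis. All 7 mitochondrial genes averaging 500 or more normalized counts, a cut not set beforehand, lie above 0.

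The spans of these genes were short, with a median of 5274 base pairs against 17169 for all listed genes. Among the other listed genes with a span of at most 10 kb, 52.0% were higher, against 80.0% of the 20 mitochondrial genes of that length. They lie on 16 chromosomes. sdhda and timm8b are neighbours on chromosome 5, with 1637 base pairs between them, and both were higher. By p, mrps2 ranked 351 of the 2885 listed genes and came first of the 26. mrps2 (p = 0.00121) and cox4i1l (p = 0.00976) alone kept an adjusted p under 0.05 when the authors' DESeq2 p was adjusted by the Bonferroni method over 21135 genes.

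Genes from 9 other mitochondrial lists, which had no part in the choice by symbol, were called in both directions, 23 higher and 16 lower. The lists also hold genes whose products act outside the mitochondrion, among them yy1a and mdh1ab, both higher, and hmgcs1, lower. Of all listed genes 47.8% were higher, and of all annotated genes, untested ones included, 9.51% were listed. The share listed ran from 0% for inner membrane organisation and 5.66% for assembly factors with other symbols to 27.6% for fatty acid oxidation. It was 6.38% for proteases and chaperones, 14.8% for fission, fusion and mitophagy and 25% for biogenesis regulators. Fatty acid oxidation had 8 of 29 annotated genes listed, 6 of them lower. The enzyme of its last step, acaa2, was at a log2 fold change of -0.94 (SE 0.13, authors' DESeq2 Wald test, adjusted p = 5.53e-12), and cpt1ab, which admits fatty acids to the mitochondrion, at -0.95 (SE 0.20). acad9, counted here too for its enzyme family, is the assembly factor named above. The higher ones were cpt1b at 1.01 (SE 0.32) and acadm at 0.23 (SE 0.08), and hmgcs1, counted in the list at -0.47 (SE 0.21) and named here after its value was seen, is an enzyme of cholesterol synthesis in the cytosol.

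All 4 listed genes of fission, fusion and mitophagy, of 27 annotated, were higher. mief2, a receptor for the fission protein Drp1, was at 0.91 (SE 0.15, authors' DESeq2 Wald test, adjusted p = 1.46e-08) and MTFP1, of the inner membrane, at 0.73 (SE 0.15), while gdap1, of the outer membrane, was at 0.35 (SE 0.09). Of the biogenesis regulators, 5 were higher and 1 lower of 24 annotated. yy1a, a transcription factor, was at 0.26 (SE 0.07), and the nuclear receptors pparg and pparaa at 1.48 (SE 0.57) and 0.81 (SE 0.30). The deacetylase sirt3 was lower, at -0.50 (SE 0.16). The list of proteases and chaperones had 3 of 47 annotated genes listed, all lower, and none of the 3 encodes a protease. samm50l, at -0.38 (SE 0.09), and mtx3, at -0.40 (SE 0.18), are named for proteins that sort and assemble others in the outer membrane, and so belong beside the import genes, among which they were not counted. phb2b, at -0.70 (SE 0.24), encodes a prohibitin, a scaffold of the inner membrane.

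**Figure D4:**
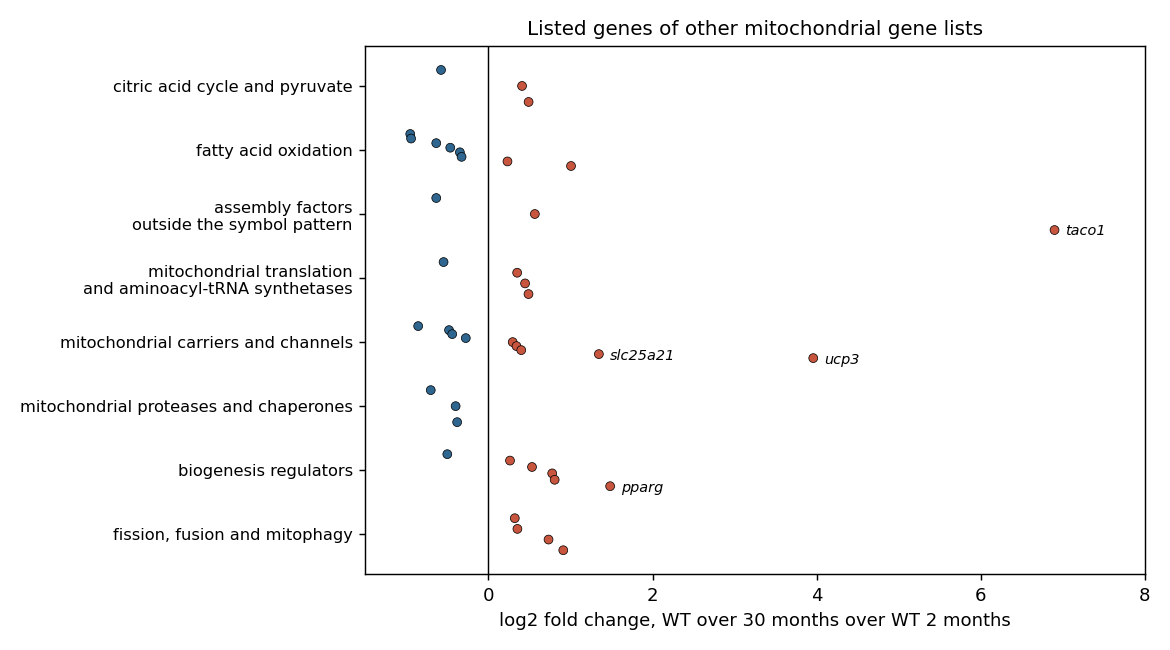
Log2 fold change of WT over 30 months over WT 2 months (x axis) of the listed genes of the other mitochondrial gene lists (rows), each point 1 gene of a list. acad9 is shown both under fatty acid oxidation and under assembly factors with other symbols. All 4 genes of fission, fusion and mitophagy lie above 0, samm50l, mtx3 and phb2b of the list of proteases and chaperones below 0, and taco1, at 6.90, lies far from the rest.

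The citric acid cycle and pyruvate list had 3 of 29 annotated genes listed. mpc1, of the carrier that brings pyruvate into the mitochondrion, was higher at 0.41 (SE 0.11, authors' DESeq2 Wald test, adjusted p = 0.000873), as was mdh1ab, a cytosolic malate dehydrogenase, at 0.49 (SE 0.22), and pdp2, a phosphatase of pyruvate dehydrogenase, was lower at -0.58 (SE 0.24). Of 53 annotated carriers and channels, 5 were higher and 4 lower. Those that rose include slc25a21 at 1.35 (SE 0.30), and those that fell the glutamate carrier slc25a18 at -0.86 (SE 0.28) and slc25a55a at -0.48 (SE 0.12). The mitochondrial translation list had 3 higher and 1 lower of 50 annotated. Of the higher genes, tfb2m, at 0.35 (SE 0.11), encodes a partner of tfam at the promoters of mitochondrial DNA. It thus belongs beside tfam, with which it was not counted. vars2, which charges valine tRNA, was lower at -0.55 (SE 0.25). Assembly factors with other symbols had 3 of 53 annotated genes listed, acad9, taco1 and uqcc2, the last a factor of complex III and higher at 0.57 (SE 0.20). None of 4 further genes of inner membrane organisation is in the table.

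Markers of several cell types were listed in the same comparison, in which 13.9% of all tested genes were called. The neuronal gene snap25a, with a mean normalized count of 37420, was at 0.30 (SE 0.06), 1 of 7 neuronal markers listed. All 7 markers of oligodendrocytes were lower, between -2.12 and -0.35, and 3 of 6 microglial and macrophage markers were higher, between 1.15 and 1.33. Of radial glial and astroglial markers 2 of 5 were lower, gfap and fabp7a, both at -0.42, and of endothelial markers 2 of 4, between -0.71 and -0.47. Of 6 red cell markers, 2 were higher, hbaa2 at 3.96 (SE 0.92) and hbba2 at 1.85 (SE 0.89), and cahz was lower at -0.47 (SE 0.08). Mean normalized counts were 34.5 for hbaa2, 75.6 for hbba2 and 1014 for cahz. The part of these cells in the values of the mitochondrial genes was not tested.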

How the data were processed

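Poly(A) RNA of whole brains was sequenced, and the labels hold 20 libraries of 7 groups. The submitters' processing notes name cutadapt 3.0, MultiQC 1.9, STAR, HTSeq and GRCz11. According to its methods section, the paper counted with featureCounts, and the authors compared groups with DESeq2. The deposited data used here are 1 such comparison, with no counts per library, so no count model and no new test across genes was run, and the values are named as those of the authors.

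Mean normalized counts (deposited as a signal per gene by the authors) average over the libraries of the fit. Each log2 fold change was deposited by the authors as old WT over WT at 2 months. Their comparison names the old group by a single age, matched here to the label of over 30 months. The log2 fold change is shrunken: its ratio to the product of Wald statistic and standard error had a median of 0.874. Wald statistics and gene positions in base pairs are scores deposited by the authors. Raw and Benjamini-Hochberg adjusted two-sided p-values of the Wald test were also deposited by the authors. Of 3 sheets, those of the higher and of the lower genes repeat the whole list and were not used. The 2 identifiers with 2 entries each were counted once. Depth per library is not in the data, so error enters through the authors' standard errors.

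Dividing adjusted by raw p gave the numbers of tested and called genes, a step tested on simulated data. The simulation always kept the called genes with the smallest and largest p, which the step reads, so it does not cover their absence. Roles were assigned by symbol, and all 26 members have an entry in the reference table, 2 of them under another symbol. Intervals are 95% normal intervals around the shrunken estimate. Full statistics are given for the 5 higher and 5 lower members with the smallest adjusted p and for the most changed member of each role, and of each other list up to 3 genes per direction with the smallest adjusted p are named. Outside this rule, full statistics are also given for sdhb, the member with the highest mean normalized count. The members and lists were chosen with earlier results of these data known. Alternatives were stricter thresholds, minimum counts, the Bonferroni method and the product of Wald statistic and standard error. Python 3.11.15, numpy 2.4.6, pandas 2.3.3, scipy 1.17.1, statsmodels 0.14.6 and matplotlib 3.10.9 were used.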

Additional observations from a re-analysis of the deposited data

How the results depend on the processing

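With an adjusted p under 0.01, 9 of the 21 higher and 3 of the 5 lower members were left, with an adjusted p under 0.001, 5 and 1, and with the Bonferroni method on the authors' DESeq2 p, 2 and 0. The unadjusted p of all 5 lower members was under 0.05, which the threshold of the table already fixes. A change of 0.5 or more in size on the log2 scale left 7 higher and 3 lower members, and one of 1 or more left 2 and 2. A mean normalized count of at least 50 left 20 higher and 3 lower members, and one of at least 200 left 14 and 1. With subunits of the complexes, the ribosome and import only, 15 were higher and 4 lower. The median log2 fold change stayed between 0.33 and 0.41 over its alternatives. It was 0.39 with the product of Wald statistic and standard error, under which no member changed sign. That product takes the sign of the Wald statistic, so the unchanged signs say little about the direction. Whether the standard error belongs to the shrunken fit is not stated, so the product may differ from the unshrunken estimate. Of the other mitochondrial lists, 14 higher and 9 lower genes were left with an adjusted p under 0.01, an alternative chosen after seeing the data. No paired analysis was possible because the data hold no value per library, and for the same reason no replicate could be left out in turn. The series description gives 3 animals for each group, and differences between them cannot be read from the data.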

Other observations

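cox8b stood apart in precision. Its standard error on the log2 scale, 0.32, was wider than those of the other 6 members that averaged 500 or more normalized counts, which lay between 0.07 and 0.13. Of 624 other listed genes with a mean normalized count from 500 to 2000, 12 (1.92%) had a standard error at least as wide.

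taco1, a translational activator of a core subunit of complex IV, had the widest change of the mitochondrial lists, at a log2 fold change of 6.90 (SE 1.25, authors' DESeq2 Wald test, adjusted p = 1.25e-05). Its mean normalized count was 27.7, and it spans 9305832 to 9315802 on GRCz11 chromosome 12. ucp3, an uncoupling protein named here after its value was seen, was at 3.96 (SE 1.45) with a mean normalized count of 5.72.

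Another listed gene overlapped or lay within 5 kb of 8 members, with the same direction in 5. The same shares were not computed over all listed genes, so these counts have no background here and nothing is read from them. sdhda and timm8b are each the neighbour of the other, so that pair enters both counts from both sides. Of these neighbours, named after their values were seen, nkap lies 3060 base pairs from ndufa1 and was higher at 0.57 (SE 0.13), and npas4b, an activity-dependent transcription factor 4599 base pairs from mrps12, was lower at -1.06 (SE 0.27).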
